A study of Mus musculus with 15 samples.

Results

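This report describes 44 genes of DNA replication in mouse heart cells, of which 43 had a value, out of 13513 genes that could be named on the arrays. They were taken as a fixed list, which was chosen with earlier results of these data known. They cover the helicase, origin licensing, the polymerases, the clamp, nucleotide supply, fork protection and linked repair factors. Mcm7, a subunit of the helicase ring, had no probe set under its name and is not described. Gene names rest on an inference: the value of each identifier was read 6900 places further down the deposited table, and a further 3 places for identifiers that start with TC10 or TC11, an order that no label or header gives. For 25 genes with 2 probe sets, the median correlation of their values over the 15 arrays was 0.586 with this reading and -0.0679 with the table as deposited. That check compares the whole reading with none, so it does not test the extra 3 places. A wrong reading would change every named value. With this reading 15303 of the 22206 rows received an identifier, and the first 6900 rows received no name. Identifiers late in the table, including those after TC11, received no value. A listed gene without a value may be missing for that reason and need not lack a probe set.

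Replication starts at origins bound by the origin recognition complex, where Cdt1 and Cdc6 load the Mcm helicase ring as an inactive double hexamer. The Cdc7 kinase with its partner Dbf4, the GINS complex and Cdc45 then switch the helicase on, polymerase alpha with primase lays down primers, and polymerases epsilon and delta extend them on the Pcna clamp. Most of these genes are transcribed in the late first gap phase and in S phase under the E2F factors, so their RNA is low in resting cells. Fibroblasts of the healthy adult heart are mostly at rest, and fibroblasts and epicardial cells proliferate in the days after an infarct.

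RNA was measured on 15 Affymetrix arrays in 3 groups of 5, all from wild-type C57BL/6 mice aged 8 to 12 weeks. CF are cardiac fibroblasts of unstressed control hearts. aCF, activated cardiac fibroblasts, and EpiSC, epicardial stromal cells, came from hearts taken 5 days after myocardial infarction (MI). CF and aCF are the non-myocyte fraction of digested ventricles, and EpiSC were released from the heart surface by shear. Infarction, cell layer and isolation therefore differ together between EpiSC and CF, and cell layer and isolation differ together between EpiSC and aCF. A control operation is not named. The labels say that aCF and EpiSC were isolated simultaneously, but not which of their arrays share a heart. The 5 arrays of a group are biological replicates by the submitters' own account. The p-values set the difference between groups against the spread between arrays, moderated over all probe sets. The tests treat the arrays of aCF and EpiSC as unpaired.

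Values are log2 levels that the authors centred on the median of each probe set across all arrays, so a value of 0 is that gene's own middle level and levels cannot be compared between genes. Differences are given in log2 with their standard error (n = 5 and 5). Tests are limma's moderated tests over all 22206 probe sets. The word "rose" is kept for a Bonferroni-adjusted p below 0.05, the study's own threshold, and the less strict Benjamini-Hochberg adjustment is named where it is used. Shares set beside the counts are of all 22206 probe sets, named or not. At Benjamini-Hochberg 1940, 3224 and 1023 of these were higher in aCF against CF, EpiSC against CF and EpiSC against aCF. Of the 13513 named genes 1541, 2399 and 799 were higher and 1216, 2055 and 874 lower in the same comparisons. In bulk RNA, more cells in S phase and more RNA per cell cannot be told apart.

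The replication genes were lowest in CF, intermediate in aCF and highest in EpiSC. The median of the 43 genes lay between -0.39 and -0.24 in the CF arrays, between -0.04 and 0.06 in the aCF arrays and between 0.24 and 0.65 in the EpiSC arrays, so the groups did not overlap. EpiSC3 and EpiSC5, at 0.24 and 0.37, were the lowest EpiSC arrays. The median difference was 0.31 for aCF against CF, 0.55 for EpiSC against aCF and 0.82 for EpiSC against CF, where the medians of all probe sets were -0.02, 0.01 and -0.01.

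In aCF against CF 6 members rose and 0 fell, where 1.21% of all probe sets rose and 0.32% fell. At the Benjamini-Hochberg threshold 22 members were higher and 0 lower, beside 8.74% and 9.38% of all probe sets. In 19 members every aCF array was above every CF array, which held for 7.88% of all probe sets, and in 0 members every aCF array was below, which held for 6.84%. Both aCF4 and aCF5 left out together, an omission chosen after seeing the data, gave 2 members that rose.

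In EpiSC against CF 11 members rose and 0 fell, beside 1.97% and 0.941% of all probe sets. At the Benjamini-Hochberg threshold 33 members were higher and 0 lower, beside 14.5% and 17.7%. All EpiSC arrays lay above all CF arrays for 30 members, beside 11.6% of all probe sets, and below them for 0 members, beside 11.8%. The count of 11 was 4 with the replicate number as a block, a number that carries no known pairing, and 8 to 16 under the other settings at the Bonferroni threshold.

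In EpiSC against aCF 1 member rose and 0 fell, beside 0.401% and 0.266% of all probe sets. At the Benjamini-Hochberg threshold 20 members were higher and 0 lower, beside 4.61% and 5.01%. All EpiSC arrays lay above all aCF arrays for 19 members, beside 5.18%, and below them for 0 members, beside 4.73%. The count of 1 fell to 0 without aCF1, aCF2, aCF3, aCF4, EpiSC1 or EpiSC2, and the count of 20 fell to 13 without aCF1. The 3 comparisons share arrays: aCF enters both steps and CF enters 2 of the 3, so their values are set side by side and are not independent of each other.

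**Figure D1:**
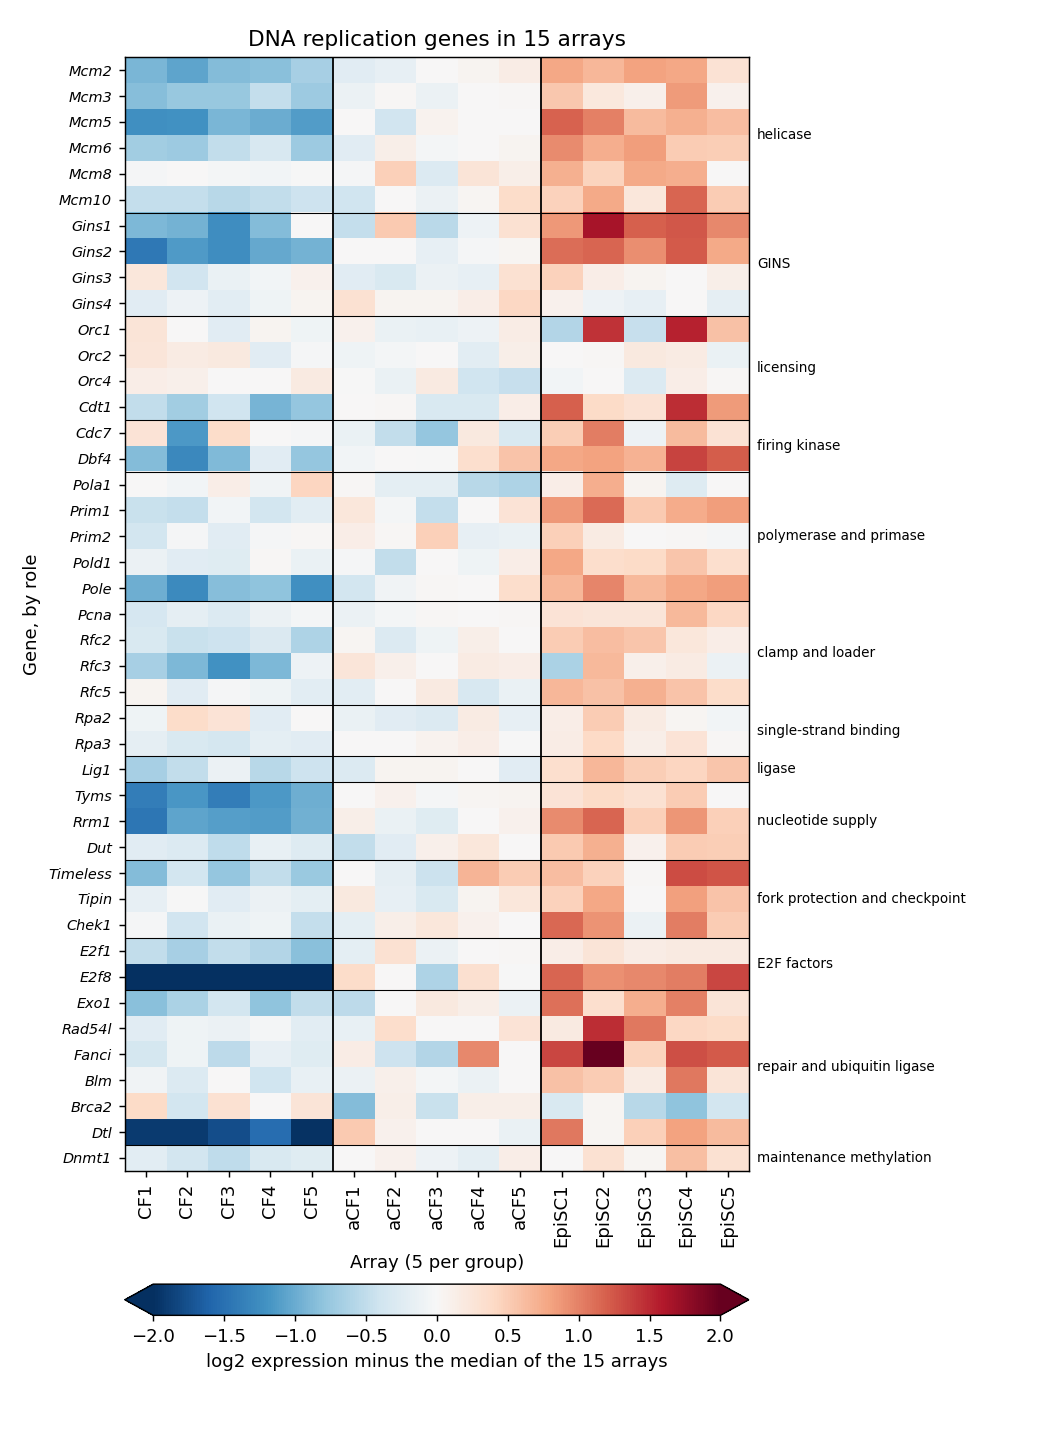
Each line is 1 of the 43 replication genes, grouped by role, and each column 1 of the 15 arrays; the colour is the log2 value minus that gene's median over the 15 arrays, with arrowheads on the scale for values beyond it. The CF columns are mostly blue and the EpiSC columns mostly red, E2f8 and Dtl are the darkest genes in CF, and Orc1 is split within EpiSC (-0.59 to 1.54).

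Markers of other cell types also differed between the groups, and their part in the results was not tested. Because values are centred, a marker that is absent everywhere cannot be told from one that is present. Of 21 macrophage markers 16 had a value, and their summed level ran from -3.60 to -0.01 in CF, from 2.01 to 5.92 in aCF and from -2.60 to -0.91 in EpiSC. Of 12 mural markers 9 had a value, with sums of -7.82 to -1.91 in CF, 3.05 to 6.93 in aCF and -6.88 to -2.47 in EpiSC. Both sums were highest in aCF. The mural markers went both ways in EpiSC against CF, where 3 were higher and 5 lower at Benjamini-Hochberg, beside 14.5% and 17.7% of all probe sets. In aCF against CF 6 of the 9 were higher at that threshold, beside 8.74%, and 2 rose, beside 1.21%. Those that rose were Tagln (2.36, adjusted p = 0.000111) and Cnn1 (2.98, adjusted p = 0.0427). With 1 array left out, the call of Cnn1 was kept only without aCF1 or aCF4 (otherwise up to 0.245). Kcnj8 (-0.30 ± 0.22) and Abcc9 (-0.62 ± 0.24), channel subunits of pericytes, passed neither threshold there. In EpiSC against CF 3 of the 9 rose and 0 fell (1 to 3 rose with 1 array left out), beside 1.97% and 0.941%. Tagln (1.79, adjusted p = 0.017) and Cnn1 (3.06, adjusted p = 0.0271) were among these 3. With 1 array left out, Tagln kept that call only without CF4 or EpiSC4, and Cnn1 only without EpiSC4. In EpiSC against aCF Tagln differed by -0.57 and Cnn1 by 0.09.

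Of 15 endothelial markers 12 had a value, with sums of 2.25 to 6.26 in CF, -2.10 to 4.31 in aCF and -9.0 to -6.87 in EpiSC. Of 17 heart muscle markers 11 had a value, with sums of 2.52 to 4.94 in CF, -6.68 to 3.77 in aCF and -8.86 to -4.96 in EpiSC. These lists ran from CF down to EpiSC. Of 12 lymphocyte markers 7 had a value (sums -0.63 to 0.07, -0.75 to 0.45 and -0.20 to 0.95 in CF, aCF and EpiSC), and of 8 neutrophil markers 7 had one (-0.75 to -0.18, -0.50 to 0.23 and 0.24 to 0.99).

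The labelled identities were checked in the same way. Of 15 epicardial and mesothelial markers 9 had a value, and their sum was -9.34 to -2.01 in CF, -6.89 to 1.84 in aCF and 10.76 to 17.95 in EpiSC. In aCF against CF 1 of the 9 was higher at Benjamini-Hochberg, beside 8.74% of all probe sets, and the largest difference was 2.41. In EpiSC against aCF 6 were higher and 0 lower at that threshold, beside 4.61% and 5.01%. Wt1, the epicardial transcription factor, rose by 2.01 ± 0.18 in EpiSC against aCF (adjusted p = 0.00883), a call lost without aCF1, aCF2, aCF4, aCF5 or EpiSC1 (up to 0.0595). Of 14 fibroblast markers 13 had a value, with sums of -1.41 to -0.34 in CF, 1.01 to 2.48 in aCF and -6.70 to -1.07 in EpiSC. In EpiSC against aCF 0 of the 13 had a positive difference. There 8 were lower at Benjamini-Hochberg (4 to 9 with 1 array left out), beside 5.01% of all probe sets. Without the extra 3 places for TC10 and TC11 identifiers, 1 was higher and 5 were lower at that threshold. The fibroblast markers went both ways in aCF against CF, where 4 rose and 2 fell, beside 1.21% and 0.32% of all probe sets. At Benjamini-Hochberg 5 were higher and 3 lower there, beside 8.74% and 9.38%. Col1a1, a chain of type I collagen, rose by 1.18 ± 0.06 (adjusted p = 5.7e-05), and the place read for it without the extra 3 places gave 0.50. The actin-severing Gsn fell by 1.13 ± 0.08 and the collagen receptor Ddr2 by 0.69 ± 0.06 (adjusted p = 0.000449 and 0.00341).

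E2f8, an atypical E2F factor that represses E2F targets late in S phase, had the largest difference of all members in aCF against CF and in EpiSC against CF. It read -2.79, -2.80, -2.78, -2.15 and -2.56 in CF1 to CF5, 0.37, 0.00, -0.62, 0.32 and -0.01 in aCF1 to aCF5, and 1.17, 0.92, 0.96, 1.02 and 1.34 in EpiSC1 to EpiSC5. The 3 groups were fully separated, and CF stood far below both others. E2f8 rose by 2.63 ± 0.19 in aCF against CF, 6.18-fold (adjusted p = 0.00121). It rose by 3.70 ± 0.14 in EpiSC against CF, 13.0-fold (adjusted p = 1.43e-06). In EpiSC against aCF the difference was 1.07 ± 0.18 and passed at the Benjamini-Hochberg threshold (0.00402).

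E2f1, the activating E2F factor that drives many of the genes described here, moved much less. It read -0.50, -0.66, -0.50, -0.59 and -0.84 in CF, -0.19, 0.31, -0.12, 0.00 and 0.02 in aCF, and 0.14, 0.25, 0.15, 0.18 and 0.18 in EpiSC. The 5 EpiSC arrays were close together and lay within the aCF range. E2f1 rose by 0.80 ± 0.07 in EpiSC against CF (adjusted p = 0.0111), a call lost without CF2, CF4 or any 1 of the 5 EpiSC arrays (up to 0.0786). In aCF against CF the difference was 0.62 ± 0.10 (Benjamini-Hochberg 0.00203), and in EpiSC against aCF it was 0.18 ± 0.09 (Benjamini-Hochberg 0.272).

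Promoters were set beside these values because E2F factors bind many replication genes. The RefSeq promoter table on GRCm38.p6 held a window for 35 of the 43 genes and none for Gins1, Gins2, Gins4, Prim2, Pole, Rfc2, Tipin and Exo1. Each sequence printed is the 250 bases before the transcript start, 5′ to 3′ on the strand of the gene, and capitals mark matches on either strand to TTTNGCGC or TTCCCGC, letter patterns of E2F sites. Those shown are, for each role with a member that rose in aCF against CF, the member with the largest difference where the table held it, and Mcm6, added after the matches were seen because it held the most. They are Dtl at chr1:191575545-191575794 (minus strand), Tyms at chr5:30073626-30073875 (minus), Mcm5 at chr8:75109259-75109508 (plus), Mcm6 at chr1:128359706-128359955 (minus) and E2f8 at chr7:48881597-48881846 (minus).
Dtl: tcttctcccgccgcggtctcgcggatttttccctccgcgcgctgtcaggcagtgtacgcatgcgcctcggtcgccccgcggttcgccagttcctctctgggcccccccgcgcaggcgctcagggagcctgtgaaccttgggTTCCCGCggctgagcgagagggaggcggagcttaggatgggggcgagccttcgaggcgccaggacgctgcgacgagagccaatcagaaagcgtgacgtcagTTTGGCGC
Mcm5: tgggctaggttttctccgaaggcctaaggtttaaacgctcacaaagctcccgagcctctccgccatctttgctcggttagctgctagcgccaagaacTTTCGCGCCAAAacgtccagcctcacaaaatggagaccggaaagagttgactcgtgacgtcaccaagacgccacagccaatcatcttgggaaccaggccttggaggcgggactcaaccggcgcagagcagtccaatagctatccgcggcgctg
Mcm6: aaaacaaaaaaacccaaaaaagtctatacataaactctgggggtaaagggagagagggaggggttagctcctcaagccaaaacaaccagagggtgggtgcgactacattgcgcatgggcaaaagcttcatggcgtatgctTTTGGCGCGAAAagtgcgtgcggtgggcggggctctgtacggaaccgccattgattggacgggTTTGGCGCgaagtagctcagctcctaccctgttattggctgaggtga
Tyms: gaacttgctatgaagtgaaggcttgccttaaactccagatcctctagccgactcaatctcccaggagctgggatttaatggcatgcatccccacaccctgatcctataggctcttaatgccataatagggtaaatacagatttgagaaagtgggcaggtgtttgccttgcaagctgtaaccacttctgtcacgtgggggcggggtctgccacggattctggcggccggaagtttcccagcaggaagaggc
E2f8: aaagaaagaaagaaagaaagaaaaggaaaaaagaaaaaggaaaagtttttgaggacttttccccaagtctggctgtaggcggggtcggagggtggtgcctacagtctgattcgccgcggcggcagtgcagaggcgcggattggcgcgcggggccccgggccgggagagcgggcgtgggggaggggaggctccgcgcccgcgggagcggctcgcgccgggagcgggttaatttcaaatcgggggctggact

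Dtl held TTCCCGC at -109 to -103 and TTTNGCGC at -8 to -1 relative to the start. Mcm5 held TTTNGCGC on the plus strand at -153 to -146 and on the minus strand at -149 to -142, which overlap and share their capitals. Mcm6 held such an overlapping pair at -110 to -103 and -106 to -99, and 1 more match at -47 to -40. Tyms and E2f8 held neither pattern in their windows.

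Over windows from 250 bases before to 50 after the start, TTTNGCGC stood in 9 of the 35 members (25.7%), and in 373 of 27025 promoters of the table (1.38%). TTCCCGC stood in 14 members (40.0%) and in 4.66% of all. At least 1 of both stood in 18 members (51.4%) and in 5.89% of all. CCAAT, the CCAAT box bound by NF-Y, stood in 21 members (60.0%) and in 37.9% of all, and TTTGAA, the letters of the CHR element of late cell cycle genes, in 6 (17.1%) and in 18.1%. The 18 members with an E2F pattern and the 17 without had median differences of 0.28 and 0.31 in aCF against CF, 0.85 and 0.80 in EpiSC against CF, and 0.56 and 0.55 in EpiSC against aCF. By Benjamini-Hochberg 7 with a pattern and 10 without were called in aCF against CF, 12 and 15 in EpiSC against CF, and 7 and 8 in EpiSC against aCF, and the difference was not tested. A match is a description of letters and not a binding site.

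**Figure D2:**
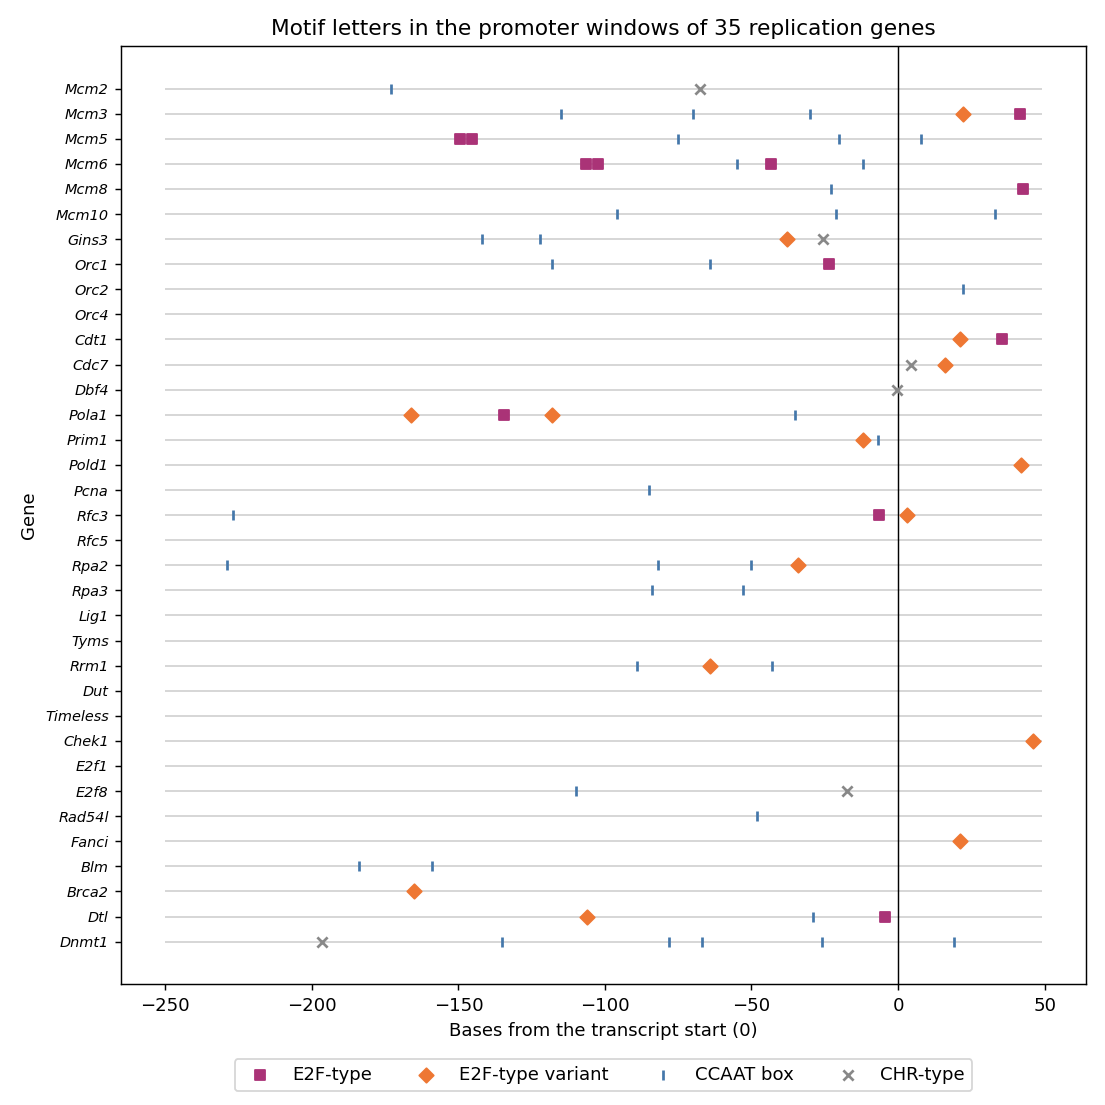
Each line is the promoter window of 1 of 35 replication genes, on an axis of bases from the transcript start (0), and the symbols mark letter matches on either strand to 4 patterns: E2F-type (TTTNGCGC), its variant (TTCCCGC), the CCAAT box and the CHR-type letters (TTTGAA). E2F-type matches of either kind are in 18 of the lines, on both sides of the start, and CCAAT boxes are in 21.

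The Mcm ring unwinds DNA at the fork, and all 6 genes of the helicase role had positive differences in the 3 comparisons. Mcm5, a ring subunit, read -1.23, -1.21, -0.91, -0.99 and -1.11 in CF, 0.00, -0.39, 0.07, 0.00 and 0.01 in aCF, and 1.18, 1.01, 0.63, 0.71 and 0.62 in EpiSC. The groups did not overlap, and aCF2 was low among the aCF arrays. Mcm5 rose by 1.03 ± 0.10 in aCF against CF, 2.04-fold (adjusted p = 0.0182). That call was kept only without CF3 or without aCF2 and was lost without each of the other 8 arrays (up to 0.112). Mcm5 rose by 1.92 ± 0.12 in EpiSC against CF, 3.78-fold (adjusted p = 0.000321).

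The ring subunits Mcm2, Mcm3 and Mcm6 followed the same order. Mcm2 rose by 1.53 ± 0.11 in EpiSC against CF (adjusted p = 0.00126), and its difference in aCF against CF was 0.83 ± 0.09 (adjusted p = 0.0636, Benjamini-Hochberg 0.000174). Mcm6 rose by 1.29 ± 0.11 in EpiSC against CF (adjusted p = 0.00825), a call lost without CF1, CF2, CF5 or EpiSC2 (up to 0.0559). Mcm3 differed by 0.68 ± 0.08 in aCF against CF and by 1.07 ± 0.15 in EpiSC against CF, both past the Benjamini-Hochberg threshold (0.000183 and 0.000416). In EpiSC against aCF, Mcm2 (0.70 ± 0.11), Mcm5 (0.89 ± 0.13) and Mcm6 (0.72 ± 0.10) passed that threshold and Mcm3 (0.40 ± 0.14, 0.113) did not. All 3 groups were separated in each of these 4 subunits.

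Mcm10 helps to start the helicase and brings in polymerase alpha. Its differences were 0.46 ± 0.12 in aCF against CF, past Benjamini-Hochberg (0.0208) but not without CF3 (0.0507), 0.65 ± 0.18 in EpiSC against aCF (0.0526) and 1.10 ± 0.15 in EpiSC against CF (0.000329). Mcm8, a helicase of recombination repair and not of the ring, read -0.02, 0.00, -0.04, -0.05 and -0.01 in CF, -0.03, 0.47, -0.27, 0.25 and 0.12 in aCF, and 0.71, 0.45, 0.75, 0.73 and 0.00 in EpiSC. The CF arrays were nearly identical, while EpiSC5 lay inside the range of the other groups. Mcm8 passed the Benjamini-Hochberg threshold in EpiSC against CF (0.55 ± 0.13, 0.0101) and in neither step.

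The 4 GINS subunits, which join the Mcm ring in the active helicase, did not move alike. Gins2 read -1.43, -1.14, -1.24, -1.03 and -0.95 in CF, 0.00, 0.01, -0.16, -0.02 and 0.04 in aCF, and 1.12, 1.16, 0.93, 1.22 and 0.75 in EpiSC. It was separated in all 3 groups, and the aCF arrays lay close together. Gins2 rose by 1.13 ± 0.09 in aCF against CF (adjusted p = 0.00253) and by 2.19 ± 0.11 in EpiSC against CF, 4.58-fold (adjusted p = 4.84e-05). It was the member that rose in EpiSC against aCF, by 1.06 ± 0.09 (adjusted p = 0.00945), a call lost without aCF1, aCF2, aCF3, aCF4, EpiSC1 or EpiSC2 (up to 0.0610).

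Gins1 had differences of a similar size with more spread: it was 0.00 in CF5 and -1.24 to -0.87 in the other CF arrays, and it ran from -0.54 to 0.53 in aCF. It passed the Benjamini-Hochberg threshold in EpiSC against CF (1.97 ± 0.22, 0.000113) and in EpiSC against aCF (1.24 ± 0.23, 0.00689), and not in aCF against CF (0.73 ± 0.26, 0.081), where it passed with the replicate number as a block. Gins3 read 0.23, -0.38, -0.13, -0.05 and 0.08 in CF, -0.22, -0.31, -0.12, -0.17 and 0.30 in aCF, and 0.46, 0.13, 0.06, 0.00 and 0.12 in EpiSC. Its groups overlapped in each pair, and its largest difference was 0.26 ± 0.13 in EpiSC against aCF (Benjamini-Hochberg 0.249).

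Gins4 was highest in aCF. It read -0.22, -0.10, -0.21, -0.08 and 0.05 in CF, 0.31, 0.06, 0.06, 0.14 and 0.42 in aCF, and 0.09, -0.10, -0.16, 0.00 and -0.18 in EpiSC. Every aCF array was above every CF array, while EpiSC overlapped both. The difference of 0.31 ± 0.09 in aCF against CF passed Benjamini-Hochberg (0.0318), but not without CF1, CF2, CF3, CF4, aCF1, aCF4 or aCF5 (up to 0.0775). It was -0.27 ± 0.09 in EpiSC against aCF (0.0963) and in EpiSC against CF 0.04 ± 0.08 (0.713).

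Among the licensing genes Cdt1 passed the Benjamini-Hochberg threshold and the origin recognition subunits did not. Cdt1, which loads the Mcm ring, read -0.49, -0.70, -0.40, -0.93 and -0.78 in CF, 0.00, 0.03, -0.30, -0.30 and 0.13 in aCF, and 1.20, 0.38, 0.29, 1.47 and 0.85 in EpiSC. The 3 groups were separated, with EpiSC2 and EpiSC3 well below the other EpiSC arrays. The differences were 0.57 ± 0.12 in aCF against CF (Benjamini-Hochberg 0.00866), 0.93 ± 0.22 in EpiSC against aCF (0.0261) and 1.50 ± 0.22 in EpiSC against CF (0.00064). The call in EpiSC against aCF was lost without aCF1, aCF2, aCF3, aCF4 or EpiSC1 (up to 0.0645) and under the replicate block, and that in aCF against CF with all 3 groups in 1 fit.

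The origin recognition subunits Orc1, Orc2 and Orc4 passed neither threshold in any comparison. Orc1, the largest of the complex and one that varies over the cell cycle, read 0.25, 0.00, -0.22, 0.06 and -0.08 in CF, 0.08, -0.13, -0.15, -0.10 and 0.15 in aCF, and -0.59, 1.45, -0.46, 1.54 and 0.58 in EpiSC. EpiSC2, EpiSC4 and EpiSC5 lay above all CF and aCF arrays, and EpiSC1 and EpiSC3 below all of them. Its difference in EpiSC against CF was 0.50 ± 0.41, with a 95% interval of -0.40 to 1.41. Orc2 differed by -0.11 ± 0.10 in aCF against CF and by -0.02 ± 0.10 in EpiSC against CF, the latter positive (0.02) after quantile normalization of the table. Orc4 differed by -0.25 ± 0.12 (interval -0.51 to 0.01) and by -0.12 ± 0.08 in the same comparisons.

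Origin firing needs the Cdc7 kinase and its activating subunit Dbf4. Dbf4 read -0.86, -1.29, -0.89, -0.22 and -0.78 in CF, -0.06, 0.00, -0.01, 0.33 and 0.57 in aCF, and 0.78, 0.81, 0.70, 1.35 and 1.21 in EpiSC. The groups were separated, and CF4 was the CF array nearest to aCF. Its differences of 0.97 ± 0.19, 0.80 ± 0.16 and 1.78 ± 0.19 in aCF against CF, EpiSC against aCF and EpiSC against CF passed Benjamini-Hochberg (0.00519, 0.0121 and 9.1e-05). The second call was lost after quantile normalization.

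Cdc7 itself read 0.28, -1.15, 0.37, 0.00 and -0.03 in CF, -0.14, -0.50, -0.77, 0.19 and -0.30 in aCF, and 0.49, 1.02, -0.10, 0.63 and 0.29 in EpiSC. CF2 stood far below the other CF arrays and the groups overlapped. Cdc7 passed neither threshold: the differences were -0.20 ± 0.28 in aCF against CF, 0.57 ± 0.29 in EpiSC against CF and 0.77 ± 0.22 in EpiSC against aCF (Benjamini-Hochberg 0.0567). The last passed Benjamini-Hochberg when only named probe sets were tested, with a trended and robust prior, and with the replicate block.

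Among the polymerases, the leading-strand enzyme Pole differed most. Pole read -0.98, -1.27, -0.85, -0.80 and -1.23 in CF, -0.37, -0.07, 0.03, 0.00 and 0.35 in aCF, and 0.67, 0.98, 0.65, 0.78 and 0.84 in EpiSC. All 3 groups were separated. Pole rose by 1.81 ± 0.11 in EpiSC against CF, 3.51-fold (adjusted p = 0.000201). In aCF against CF the difference was 1.01 ± 0.14 (Benjamini-Hochberg 0.000643) and in EpiSC against aCF 0.80 ± 0.12 (0.00284).

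Pold1, the catalytic subunit of the lagging-strand polymerase, read -0.12, -0.22, -0.25, 0.03 and -0.14 in CF, -0.03, -0.49, 0.00, -0.09 and 0.13 in aCF, and 0.77, 0.35, 0.38, 0.56 and 0.34 in EpiSC. CF and aCF overlapped, and EpiSC lay above both. Its difference was 0.04 ± 0.11 in aCF against CF (interval -0.20 to 0.29), 0.58 ± 0.13 in EpiSC against aCF (Benjamini-Hochberg 0.0178) and 0.62 ± 0.10 in EpiSC against CF (0.000782). Pola1, the catalytic subunit of polymerase alpha, passed neither threshold. It differed by -0.40 ± 0.14 in aCF against CF (0.0772) and by 0.44 ± 0.18 in EpiSC against aCF (0.181), with aCF4 and aCF5 its lowest arrays at -0.56 and -0.61.

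The primase pair were unlike each other. Prim1, the catalytic primase subunit, rose by 1.13 ± 0.12 in EpiSC against CF (adjusted p = 0.0463), a call kept only without EpiSC3 and lost without each of the other 9 arrays (up to 0.282). In EpiSC against aCF the difference was 0.82 ± 0.15 (Benjamini-Hochberg 0.00804) and in aCF against CF 0.31 ± 0.14 (0.166). Prim1 and Timeless are the members whose identifiers start with TC10, so they depend on the extra 3 places: without those, the place read for Prim1 gave 0.14 in EpiSC against CF, 0.15 in EpiSC against aCF and -0.01 in aCF against CF. Prim2, the large primase subunit, differed by 0.06 ± 0.14 in EpiSC against aCF and by 0.26 ± 0.11 in EpiSC against CF (0.109).

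The sliding clamp Pcna holds the polymerases on DNA. It differed by 0.17 ± 0.07 in aCF against CF (Benjamini-Hochberg 0.106), by 0.38 ± 0.09 in EpiSC against aCF (0.0203) and by 0.55 ± 0.09 in EpiSC against CF (0.00145). The call in EpiSC against aCF was lost without aCF1 (0.0526).

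The clamp loader subunits Rfc2, Rfc3 and Rfc5, which open the Pcna ring, had 3 patterns. Rfc3 read -0.67, -0.90, -1.21, -0.90 and -0.10 in CF, 0.24, 0.10, 0.00, 0.16 and 0.14 in aCF, and -0.64, 0.65, 0.10, 0.16 and -0.12 in EpiSC. The aCF arrays were tight, and EpiSC1 lay among the CF arrays. Rfc3 passed Benjamini-Hochberg in aCF against CF (0.88 ± 0.17, 0.00505) and in EpiSC against CF (0.79 ± 0.25, 0.0352), the second not without CF1, CF2, CF3, CF4, EpiSC2, EpiSC3 or EpiSC4 (up to 0.0832). It differed by -0.10 ± 0.19 in EpiSC against aCF.

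Rfc5 read 0.05, -0.23, -0.03, -0.09 and -0.21 in CF, -0.21, 0.00, 0.18, -0.32 and -0.14 in aCF, and 0.66, 0.58, 0.71, 0.57 and 0.37 in EpiSC. CF and aCF lay over each other, and the EpiSC arrays stood above all 10 of them. Its difference was 0.00 ± 0.10 in aCF against CF (interval -0.21 to 0.22), 0.68 ± 0.10 in EpiSC against aCF (Benjamini-Hochberg 0.00259) and 0.68 ± 0.08 in EpiSC against CF (0.000167). Rfc2 was separated in the 3 groups, with 0.37 ± 0.09 (0.0152), 0.45 ± 0.11 (0.0326) and 0.82 ± 0.11 (0.00031) in aCF against CF, EpiSC against aCF and EpiSC against CF. The call of Rfc2 in EpiSC against aCF was lost without aCF1, aCF2, aCF3, aCF5, EpiSC1, EpiSC2 or EpiSC3 (up to 0.0749).

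Replication protein A coats the single strands. Its smallest subunit Rpa3 read -0.18, -0.31, -0.35, -0.20 and -0.22 in CF, 0.00, 0.00, 0.07, 0.14 and -0.01 in aCF, and 0.15, 0.40, 0.11, 0.28 and 0.03 in EpiSC. CF lay below both other groups, which overlapped. Rpa3 passed Benjamini-Hochberg in aCF against CF (0.29 ± 0.06, 0.00532) and in EpiSC against CF (0.45 ± 0.08, 0.00166). The middle subunit Rpa2 read -0.09, 0.36, 0.27, -0.23 and 0.00 in CF, -0.14, -0.23, -0.27, 0.16 and -0.17 in aCF, and 0.13, 0.51, 0.16, 0.04 and -0.05 in EpiSC. Its groups overlapped, and it passed neither threshold (-0.19 ± 0.12, 0.29 ± 0.12 and 0.10 ± 0.14 in aCF against CF, EpiSC against aCF and EpiSC against CF).

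Lig1, the ligase that joins lagging-strand fragments, read -0.66, -0.49, -0.11, -0.55 and -0.42 in CF, -0.28, 0.06, 0.05, 0.00 and -0.23 in aCF, and 0.33, 0.66, 0.49, 0.43 and 0.56 in EpiSC. EpiSC lay above all others, and CF3 lay inside the aCF range. Its differences of 0.57 ± 0.09 in EpiSC against aCF and 0.94 ± 0.10 in EpiSC against CF passed Benjamini-Hochberg (0.00365 and 0.000104). That of 0.37 ± 0.11 in aCF against CF passed at 0.0441, but not without CF1, CF2, CF4, CF5, aCF2, aCF3 or aCF4 (up to 0.101).

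Nucleotide supply held 2 of the 6 members that rose in aCF against CF. Tyms, thymidylate synthase, read -1.38, -1.17, -1.38, -1.15 and -0.98 in CF, 0.00, 0.09, -0.03, 0.04 and 0.06 in aCF, and 0.27, 0.39, 0.30, 0.50 and 0.00 in EpiSC. CF stood alone at the bottom, and EpiSC5 lay within the aCF range. Tyms rose by 1.24 ± 0.08 in aCF against CF, 2.37-fold (adjusted p = 0.000345), and by 1.50 ± 0.11 in EpiSC against CF (adjusted p = 0.00119). The step from aCF to EpiSC was 0.26 ± 0.09 (Benjamini-Hochberg 0.101).

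Rrm1, the large subunit of ribonucleotide reductase, rose by 1.10 ± 0.10 in aCF against CF (adjusted p = 0.0107) and by 1.92 ± 0.15 in EpiSC against CF (adjusted p = 0.00224). The call in aCF against CF was lost without CF2, CF3, CF4, aCF1, aCF4 or aCF5 (up to 0.0662). Rrm1 was separated in all 3 groups, with 0.83 ± 0.14 in EpiSC against aCF (Benjamini-Hochberg 0.00537). Dut, which removes dUTP, read -0.23, -0.28, -0.51, -0.15 and -0.26 in CF, -0.49, -0.22, 0.10, 0.23 and 0.00 in aCF, and 0.53, 0.71, 0.09, 0.51 and 0.49 in EpiSC. The aCF arrays overlapped both other groups. Dut passed Benjamini-Hochberg in EpiSC against CF (0.75 ± 0.11, 0.000686) and in EpiSC against aCF (0.54 ± 0.15, 0.0497), the latter not without aCF1, aCF2, aCF3, aCF5, EpiSC1, EpiSC2, EpiSC4 or EpiSC5 (up to 0.11).

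Timeless and Tipin form the fork protection complex, and Chek1 is the checkpoint kinase that answers stalled forks. Timeless read -0.86, -0.37, -0.77, -0.49 and -0.74 in CF, 0.00, -0.18, -0.43, 0.68 and 0.51 in aCF, and 0.61, 0.46, 0.02, 1.30 and 1.25 in EpiSC. aCF spread widely, with aCF4 and aCF5 high and aCF3 inside the CF range. Timeless passed Benjamini-Hochberg in aCF against CF (0.76 ± 0.20, 0.0258), not without CF1, CF3, CF5 or aCF5 (up to 0.0636) nor with all 3 groups in 1 fit, and in EpiSC against CF (1.37 ± 0.23, 0.00144). Without the extra 3 places for its TC10 identifier, the place read for it gave -0.31 and -0.23 in these comparisons. Its difference of 0.61 ± 0.29 in EpiSC against aCF (0.229) passed with the replicate block.

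Tipin read -0.16, -0.01, -0.23, -0.11 and -0.20 in CF, 0.20, -0.16, -0.30, 0.05 and 0.22 in aCF, and 0.46, 0.78, 0.00, 0.82 and 0.57 in EpiSC. EpiSC3 was the low EpiSC array, inside the aCF range. Tipin passed Benjamini-Hochberg in EpiSC against CF (0.67 ± 0.14, 0.00496), with 0.14 ± 0.10 and 0.52 ± 0.16 in aCF against CF and EpiSC against aCF. Chek1 passed it in the same comparison (0.91 ± 0.22, 0.0102), with EpiSC3 at -0.12 and the other EpiSC arrays from 0.51 to 1.15.

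Among the repair and degradation factors, Dtl, the substrate receptor of the ubiquitin ligase that destroys Cdt1 in S phase, differed most. Dtl read -1.91, -1.91, -1.78, -1.53 and -1.98 in CF, 0.53, 0.08, 0.00, 0.00 and -0.13 in aCF, and 1.06, 0.04, 0.48, 0.81 and 0.64 in EpiSC. CF was more than a log2 unit below every other array, and aCF and EpiSC overlapped. Dtl rose by 1.92 ± 0.13 in aCF against CF, 3.78-fold (adjusted p = 0.000465), and by 2.43 ± 0.17 in EpiSC against CF, 5.38-fold (adjusted p = 0.000998). The step from aCF to EpiSC was 0.51 ± 0.19 (Benjamini-Hochberg 0.124).

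Fanci, a Fanconi anaemia protein of crosslink repair, was among the most spread members: it ran from -0.58 to 0.96 in aCF and from 0.45 to 2.05 in EpiSC. It differed by 0.30 ± 0.25 in aCF against CF, by 1.25 ± 0.33 in EpiSC against aCF (Benjamini-Hochberg 0.0399) and by 1.55 ± 0.24 in EpiSC against CF (0.000795). The call in EpiSC against aCF was lost without aCF1, aCF2, aCF3, aCF5, EpiSC1, EpiSC2, EpiSC4 or EpiSC5 (up to 0.0944). Exo1, an exonuclease of mismatch repair and end resection, differed by 0.56 ± 0.14 (0.0198), 0.75 ± 0.19 (0.034) and 1.31 ± 0.18 (0.000337) in aCF against CF, EpiSC against aCF and EpiSC against CF. The first of these calls was lost without CF1 (0.0507), and the second without aCF1, aCF2, aCF4, aCF5, EpiSC1, EpiSC3 or EpiSC4 (up to 0.0739).

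Blm, the RecQ helicase of Bloom syndrome, read -0.07, -0.28, 0.01, -0.40 and -0.15 in CF, -0.11, 0.10, -0.04, -0.11 and 0.00 in aCF, and 0.59, 0.51, 0.17, 1.05 and 0.26 in EpiSC. EpiSC lay above both other groups, which overlapped. Blm passed Benjamini-Hochberg in EpiSC against CF (0.69 ± 0.16, 0.00713) and in EpiSC against aCF (0.55 ± 0.15, 0.0436), the latter not without EpiSC1, EpiSC2 or any 1 of the 5 aCF arrays (up to 0.0965). Rad54l, a motor protein of recombination, passed it in EpiSC against CF (0.84 ± 0.22, 0.0159), with EpiSC2 and EpiSC3 highest at 1.48 and 1.05.

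Brca2, a factor of repair by homologous recombination, had its lowest mean in EpiSC. It ran from -0.37 to 0.39 in CF, from -0.87 to 0.12 in aCF and from -0.81 to 0.04 in EpiSC, so the groups overlapped. Its differences were -0.31 ± 0.22 in aCF against CF, -0.51 ± 0.18 in EpiSC against CF (Benjamini-Hochberg 0.0503) and -0.20 ± 0.22 in EpiSC against aCF, the last positive (0.05) after quantile normalization. The second passed at that threshold when only named probe sets were tested.

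Dnmt1, which copies DNA methylation to the new strand, read -0.21, -0.36, -0.51, -0.31 and -0.25 in CF, 0.00, 0.08, -0.10, -0.20 and 0.14 in aCF, and 0.00, 0.31, 0.04, 0.60 and 0.31 in EpiSC. CF lay below all other arrays. Dnmt1 passed Benjamini-Hochberg in EpiSC against CF (0.58 ± 0.11, 0.00351) and in aCF against CF (0.31 ± 0.08, 0.0237), the latter not without CF2, CF3, aCF2 or aCF5 (up to 0.0552). The step from aCF to EpiSC was 0.27 ± 0.12 (0.204).

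**Figure D3:**
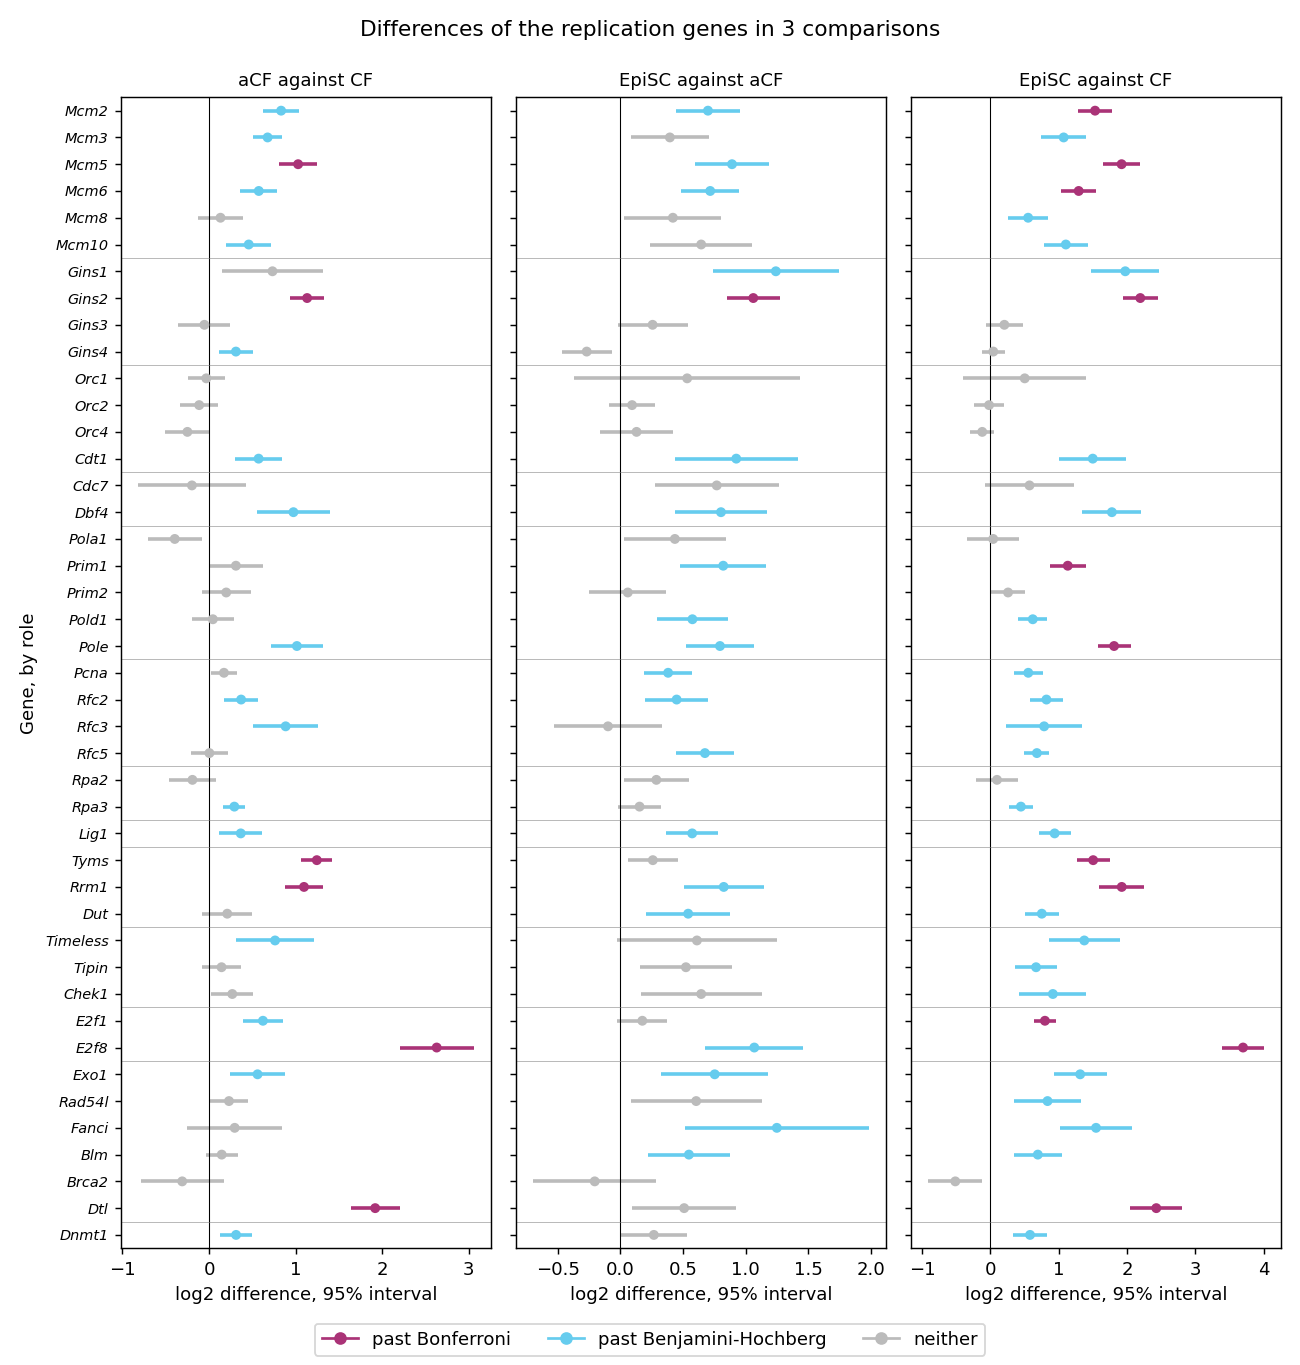
Points are the log2 differences of the 43 replication genes in 3 comparisons of 5 against 5 arrays, by role, with 95% intervals from limma; the colour gives the threshold passed, and the axes of the panels differ in range. E2f8 (2.63) and Dtl (1.92) lead in aCF against CF, Gins2 (1.06) is the gene past Bonferroni in EpiSC against aCF, and the intervals of Orc2 and Orc4 span 0 in each panel.

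The order CF below aCF below EpiSC of the group means held for 33 of 43 members, and for 24.1% of all probe sets. Every CF array was below every aCF array and every aCF array below every EpiSC array for 11 members, Mcm2, Mcm3, Mcm5, Mcm6, Gins2, Cdt1, Dbf4, Pole, Rfc2, Rrm1 and E2f8, and for 1.23% of all probe sets. Gins4 and Rfc3 had their highest mean in aCF. Gins3, Orc1, Cdc7, Pola1 and Rpa2 had their lowest mean in aCF and their highest in EpiSC. Orc2 and Orc4 had their lowest mean in aCF and their highest in CF, and Brca2 ran from CF down to EpiSC. Apart from Gins4 and Rfc3, these members passed no threshold in any comparison.

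A contrast of the EpiSC minus aCF step with the aCF minus CF step, added after the data were seen, was fitted over the 15 arrays. At the Benjamini-Hochberg threshold the second step was smaller for 4 members, 9.3% of them beside 4.33% of all probe sets, and larger for 1, 2.33% beside 2.65%, and 0 members passed Bonferroni in either direction (0.698% and 0.158% of all probe sets). The smaller second steps were those of Tyms (-0.98 ± 0.16, 0.0015), E2f8 (-1.56 ± 0.30, 0.00523), Dtl (-1.41 ± 0.29, 0.00792) and Gins4 (-0.58 ± 0.15, 0.0257). The larger second step was that of Rfc5 (0.67 ± 0.16, 0.0222). Mcm2 (-0.13 ± 0.19), Mcm5 (-0.14 ± 0.21), Mcm6 (0.14 ± 0.18) and Gins2 (-0.07 ± 0.17) passed in neither direction.

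**Figure D4:**
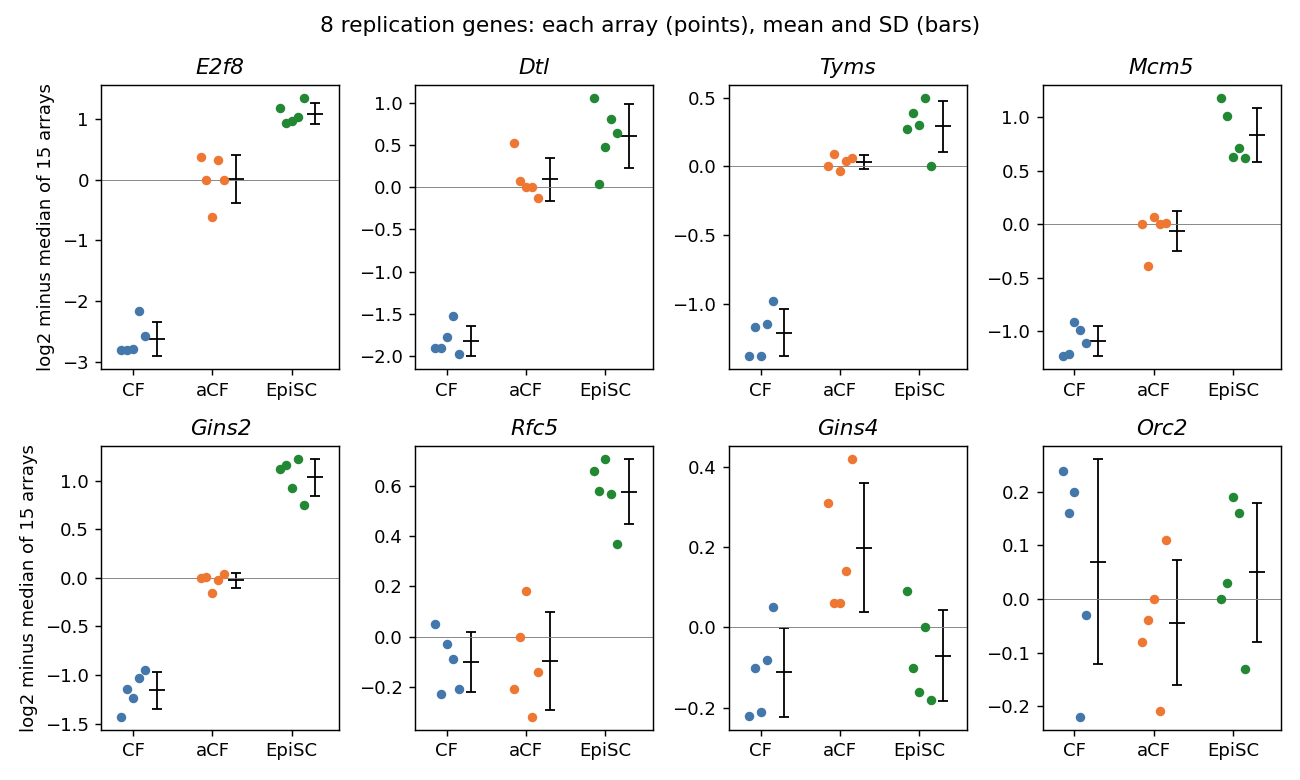
Points are the 5 arrays of each group and bars the mean with its SD for 8 replication genes, as log2 values minus the gene's median over the 15 arrays; each panel has its own axis. In E2f8, Dtl and Tyms the CF arrays stand far below the rest, Mcm5 and Gins2 climb in similar steps, the EpiSC arrays of Rfc5 (0.37 to 0.71) stand above the overlapping CF and aCF arrays, Gins4 is highest in aCF and Orc2 overlaps throughout.

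The spread between arrays was wider in EpiSC for most members. The median SD of a member was 0.17 in CF, 0.20 in aCF and 0.24 in EpiSC. The largest SD of a member was in EpiSC for 24 genes, in aCF for 14 and in CF for 5. These SDs were not computed by group for all probe sets, so it is not known whether the pattern is particular to these genes.

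Of 56 further replication genes on a list of the same roles, 26 had a value. The others may be missing only through the reading of the table's order. Of these 3 rose in aCF against CF, 5 in EpiSC against CF and 0 in EpiSC against aCF, with 0 lower in each. Of all probe sets 1.21%, 1.97% and 0.401% rose in these comparisons. At the Benjamini-Hochberg threshold 10, 16 and 8 were higher, beside 8.74%, 14.5% and 4.61%, and 0 lower, beside 9.38%, 17.7% and 5.01%. The medians were 0.26, 0.53 and 0.36. The counts at Bonferroni fell to 2 in aCF against CF without CF1, CF2, CF3, CF5, aCF2, aCF3 or aCF4, and to 3 in EpiSC against CF without CF1, CF2, CF3, CF5 or EpiSC4. The last Benjamini-Hochberg count was 3 to 7 with 1 array left out, lowest without aCF2. Without the extra 3 places for TC10 and TC11 identifiers, 8, 13 and 6 were higher and 1, 3 and 1 lower at that threshold. Asf1b, a histone chaperone of newly made chromatin, rose by 2.06 ± 0.12 in aCF against CF (adjusted p = 0.000155) and by 2.49 ± 0.16 in EpiSC against CF (adjusted p = 0.000494). Ccna2, the S-phase cyclin, rose by 1.92 ± 0.11 and 2.34 ± 0.12 (adjusted p = 8.74e-05 and 4.18e-05).

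The G1/S cyclin Ccne1 rose by 1.17 ± 0.12 in aCF against CF and 1.95 ± 0.18 in EpiSC against CF (adjusted p = 0.0265 and 0.0131). With 1 array left out, the first call was kept only without aCF1 (otherwise up to 0.167), and the second only without EpiSC3 or EpiSC5 (otherwise up to 0.0907). Its relative Ccne2 rose by 2.30 ± 0.15 in EpiSC against CF (adjusted p = 0.000527), with 1.40 ± 0.16 in aCF against CF (adjusted p = 0.0732). Cdc6, which loads the Mcm ring with Cdt1, rose by 1.70 ± 0.15 in EpiSC against CF (adjusted p = 0.0104), a call lost without CF1, CF2, CF3, CF5, EpiSC4 or EpiSC5 (up to 0.0708), and its difference in aCF against CF was 0.86 ± 0.16. Without the extra 3 places, the place read for Cdc6 gave -0.70 and -0.32 in these comparisons.

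Mitosis genes, of which 29 of 35 had a value, were set beside the replication genes. Of these 17 rose in aCF against CF, 22 in EpiSC against CF and 0 in EpiSC against aCF. Of all probe sets 1.21%, 1.97% and 0.401% rose in these comparisons. In EpiSC against aCF 14 were higher at the Benjamini-Hochberg threshold, beside 4.61% of all probe sets. In each comparison 0 were lower at either threshold, where Benjamini-Hochberg called 9.38%, 17.7% and 5.01% of all probe sets lower. The medians of the mitosis genes were 1.80, 2.30 and 0.54 in the 3 comparisons, beside 0.31, 0.82 and 0.55 for the 43 replication genes. Cdk1, the mitotic kinase, rose by 3.87 ± 0.27 in aCF against CF and by 4.53 ± 0.28 in EpiSC against CF (adjusted p = 0.000636 and 0.000245), with 0.66 ± 0.11 in EpiSC against aCF. Without the extra 3 places, the place read for Cdk1 gave 0.50, 0.40 and -0.10, and 13 and 18 mitosis genes rose in the first 2 comparisons, with 1 lower at Benjamini-Hochberg in each of the 3. Mki67, the proliferation marker, rose by 2.95 ± 0.31 in EpiSC against CF (adjusted p = 0.0446), a call kept, with 1 array left out, only without CF4 (otherwise up to 0.267), and its difference in aCF against CF was 2.49 ± 0.29 (adjusted p = 0.0928). The difference between the lists was not tested.

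**Figure D5:**
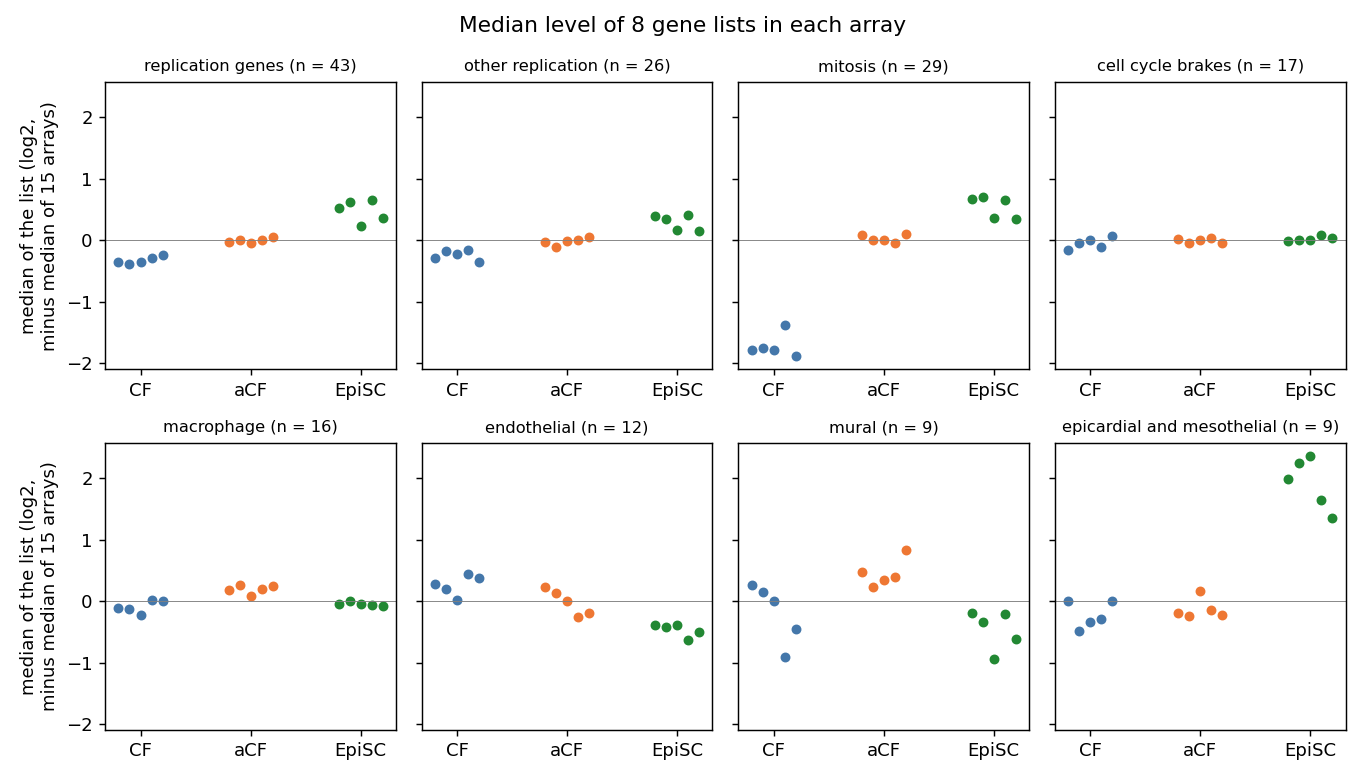
Each point is the median of a gene list in 1 array, in log2 minus each gene's median over the 15 arrays, for 8 lists with their number of genes and 5 arrays a group, on a shared axis. The replication genes climb from CF (-0.39 to -0.24) to EpiSC (0.24 to 0.65), the mitosis genes are far lower in CF (-1.88 to -1.37), and the macrophage and mural lists are highest in aCF.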

How the data were processed

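The 43 genes were read from the authors' deposited log2 values of 15 arrays. Per the series design text, GeneSpring GX quantile-normalized probe signals over all samples, summarised probe sets by RMA and subtracted each probe set's median over the samples. The log base was inferred from that method and from the range (-4.77 to 5.52). The text's filter on signals near background could not be repeated, since levels are lost. Values were paired with identifiers as described above, and no label or header used here names the genome build of the files.

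Each comparison was fitted on its 10 arrays with limma 3.58.1 in R 4.3.3 (lmFit, eBayes, two-sided) over all 22206 probe sets, as the design text states for 2 of the 3 pairs. Bonferroni adjustment decided which genes rose or fell (0.05), and Benjamini-Hochberg calls, an alternative, are named as such. The fits were tested on simulated data. Arrays have no read depth, and their number sets the precision.

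The members and the gene lists were chosen with earlier results of these data known. All members are accounted for, and values of each array are printed for the member of each role with the largest and the smallest difference in aCF against CF, with others added where their pattern differed. In the other lists, genes past the threshold were named, at most 4 a list, beside a fixed set of cyclins and markers. Promoters came from RefSeq on GRCm38.p6. No 2 arrays shared more than 2.45% of their values. Alternatives were all 3 groups in 1 fit, named probe sets alone, quantile normalization, a trended and robust prior, a block for the replicate number, no extra places for TC10 and TC11, and each array left out. Same-numbered arrays of different groups correlated between -0.0585 and 0.16 in their deviations from group means, and the labels do not say which aCF and EpiSC arrays share a heart, so the numbers were not taken as pairs.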

Additional observations from a re-analysis of the deposited data

Results flagged for a closer look

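In 4 of 129 groups of 5 arrays, counted over the 43 replication genes, 1 array stood apart from the other 4 by more than Dixon's 95% critical value. Chance gives about 1 in 20 such groups, or 6.5 of 129. Mcm2 was 0.29 in EpiSC5, below 0.67 to 0.81 in the other EpiSC arrays. Mcm5 was -0.39 in aCF2, below 0.00 to 0.07 in the other aCF arrays. Gins3 was 0.46 in EpiSC1, above 0.00 to 0.13 in the other EpiSC arrays. Cdc7 was -1.15 in CF2, below -0.03 to 0.37 in the other CF arrays.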

How the results depend on the processing

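With Benjamini-Hochberg in place of Bonferroni adjustment, 22, 33 and 20 members were higher in aCF against CF, EpiSC against CF and EpiSC against aCF. With the replicate number as a block, 2, 4 and 0 passed Bonferroni. The same number was the best partner in 0 to 2 of 5 arrays, most often between EpiSC and aCF, where replicate 4 correlated at 0.16. Such correlations cannot show whether arrays share a heart, and the labels do not say it. Without both aCF4 and aCF5, chosen after seeing the data, 2 passed in aCF against CF and 0 in EpiSC against aCF, where a trended and robust prior also gave 0. Under the other 4 alternatives (3 groups in 1 fit, named probe sets, quantile normalization, no extra places), 6 to 8, 10 to 16 and 1 passed. Leaving out each array in turn gave 4 to 6, 8 to 11 and 0 to 1 members that rose, and at the Benjamini-Hochberg threshold 18 to 22, 32 to 33 and 13 to 22. Of the 22, 33 and 20 members higher at that threshold, 14, 30 and 11 passed it under all the other alternatives too. Those that did not were Mcm10, Gins4, Cdt1, Rfc2, Lig1, Timeless, Exo1 and Dnmt1 in aCF against CF, Prim1, Rfc3 and Timeless in EpiSC against CF, and Cdt1, Dbf4, Prim1, Pcna, Rfc2, Dut, Exo1, Fanci and Blm in EpiSC against aCF. Members lower at that threshold numbered 0 to 1 in aCF against CF (1 without aCF1 or aCF3), 0 to 1 in EpiSC against CF (1 without CF2 or EpiSC2) and 0 in EpiSC against aCF, with 1 in EpiSC against CF among named probe sets (Brca2) and 1 in EpiSC against aCF with 3 groups in 1 fit (Gins4). The medians ran from 0.29 to 0.34, 0.77 to 0.89 and 0.51 to 0.63 without 1 array. All results with a gene name rest on the reading of the table's order, levels are relative, and probe sets near background cannot be told.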

Other observations

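Brakes of the cell cycle were looked at beside the replication genes: 17 of 22 had a value. Their medians were 0.05 in aCF against CF and 0.00 in both comparisons of EpiSC. At the Benjamini-Hochberg threshold 4 were higher and 2 lower in aCF against CF, 6 and 3 in EpiSC against CF, and 1 and 2 in EpiSC against aCF. Of all probe sets 8.74% and 9.38%, 14.5% and 17.7%, and 4.61% and 5.01% were called in these ways. The count of 1 was 0 without aCF2, aCF3, aCF5, EpiSC1, EpiSC2, EpiSC3 or EpiSC4, and without the extra 3 places for TC10 and TC11. Rbl2, a pocket protein that represses E2F targets in resting cells, fell by 0.94 ± 0.09 in EpiSC against CF (Bonferroni-adjusted p = 0.026), a call kept, with 1 array left out, only without EpiSC1 or EpiSC3 (otherwise up to 0.161), and its difference in aCF against CF was -0.37 ± 0.09 (Benjamini-Hochberg 0.0125). Cdkn1b, the inhibitor p27, differed by -0.05 ± 0.08 in aCF against CF, -0.63 ± 0.12 in EpiSC against aCF (Benjamini-Hochberg 0.00965) and -0.68 ± 0.12 in EpiSC against CF (0.00204). Cdkn1c, the inhibitor p57, differed by -0.16 ± 0.07, 0.05 ± 0.07 and -0.11 ± 0.05 and passed no threshold, and Cdkn1a had no value. Cdkn2a and Cdkn2b, chosen for their size after the values were seen, differed by 0.76 ± 0.11 and 0.88 ± 0.10 in aCF against CF (Benjamini-Hochberg 0.000938 and 0.000176) and by 1.12 ± 0.15 and 0.72 ± 0.12 in EpiSC against CF (0.000349 and 0.0015). Rbl1, a pocket protein like Rbl2, and Ccng1, a target of p53, chosen in the same way, were higher in EpiSC against CF by 1.25 ± 0.32 and 0.89 ± 0.10 (Benjamini-Hochberg 0.0129 and 0.000108), and the place read for Ccng1 without the extra 3 places gave 0.10.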
